A study of Ovis aries with 15 samples.

Results

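The genes described are those of nicotinamide adenine dinucleotide (NAD) salvage and of the sirtuins that consume NAD, 8 in number: NMRK2, NAMPT, NADSYN1 and NNMT on the side of NAD and nicotinamide metabolism, and SIRT1, SIRT2, SIRT3 and SIRT5 among the sirtuins. Every probe set whose only annotated symbol was one of these was taken, which gave 12 probe sets for 7 genes of the 9155 genes that had a probe set of their own. NNMT, which methylates nicotinamide for disposal, had no such probe set and was not analysed here. Of the 12 probe sets, 9 reached a signal of 50 on 3 or more arrays and were kept, among 15981 kept in all, and they stood for all 7 genes. The list was drawn up with values of these arrays already known, so the members' values and differences are a description. No p-value of a member is given, and counts of members past the threshold of the fit are given beside the share of all probe sets only.

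The samples were longissimus dorsi muscle, a back muscle, of untreated cross-bred sheep of Dorset, Suffolk and Rambouillet stock, hybridised as biotin-labelled cRNA to an Affymetrix array designed for cattle. There were 3 fetal stages, at 80, 100 and 120 d of development, and 2 postnatal stages, of lambs taken 1 to 3 days after birth (150 d) and of 12-week-old lambs (230 d). Each stage had 3 animals with 1 array each, and no animal was sampled at 2 stages. By the methods of the study, the animals were male except for 1 female each at 100 d and at 120 d, and the sex of single animals was not given.

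NAD carries electrons in glycolysis, the tricarboxylic acid cycle and fatty acid oxidation, and it is also broken down by enzymes that use it as a substrate, the sirtuins and the ADP-ribosyltransferases among them. These release nicotinamide, which NAMPT turns into nicotinamide mononucleotide in the rate-limiting step of salvage. Nicotinamide riboside enters by another door, through the kinases NMRK1 and NMRK2, of which NMRK2 is known as the form of skeletal muscle and heart. NMNAT enzymes then complete NAD, and NADSYN1 makes it by amidation on the route from nicotinic acid and from tryptophan. Sirtuins remove acetyl or other acyl groups from proteins. SIRT1 acts mainly in the nucleus, SIRT2 mainly in the cytosol, and SIRT3 and SIRT5 in the mitochondrion.

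The median signal of the 15 arrays lay between 51.4 and 69.4. The 3'/5' signal ratio of the actin control, a sign of RNA quality, averaged 1.88, 1.53, 1.03, 0.91 and 0.996 from the youngest stage to the oldest, and its part in the values below was not tested. The labelled hybridisation controls, which are added in fixed amounts, averaged 9.89, 9.74, 9.65, 10.31 and 10.58 on the log2 scale in the same order. Markers of muscle fibres were bright at every stage, and the summed signal of 8 such genes ranged from 75506 to 100966 in the 80 d fetuses, from 101319 to 128544 in those of 120 d, from 150443 to 239352 in the newborn lambs and from 230709 to 322443 in the older lambs. The tissue holds several cell types, so fewer cells of a type and less RNA per cell cannot be told apart in any value below.

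The members' largest differences lay between the late fetus and the postnatal stages, and in NMRK2 also between the postnatal stages. As a description alone, 4 of the 9 probe sets lay past the limma threshold of the fit over all probe sets (an adjusted p under 0.01) between 120 d and 150 d, higher at 150 d on the deposited scale (NMRK2, NAMPT and both of SIRT2), where 4.42% of all kept probe sets did so in that direction and 6.78% in the other. From the newborn to the older lambs it was 1, NMRK2, lower at 230 d (1.08% of all). From the late fetus to the older lambs it was 3, NAMPT and both of SIRT2, higher at 230 d (5.81% of all). Within the fetal period it was 0. There, 0.125% of all kept probe sets passed in either direction between 80 d and 100 d, 0.0563% in the next interval and 1.31% over the whole span. The members' median log2 difference, 150 d minus 120 d, was 0.41, against -0.15 over all kept probe sets. Nothing is read from these counts, since the list was chosen on the same arrays.

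**Figure D1:**
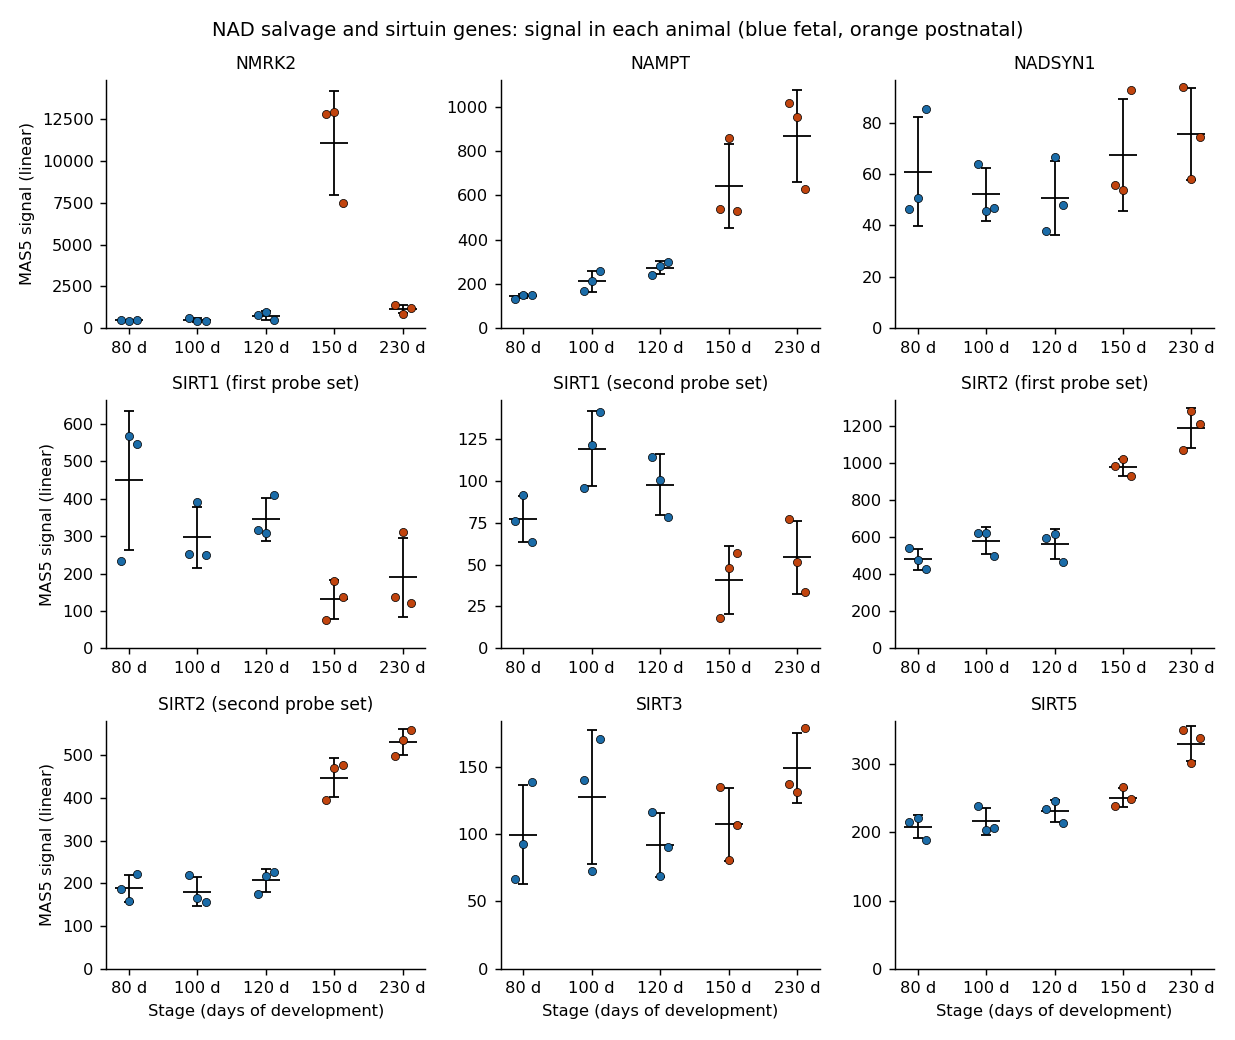
MAS5 signal on a linear axis from 0 (y) of the 9 kept probe sets at the 5 stages (x), with 1 point per animal (blue fetal, orange postnatal), and the mean (horizontal line) with its SD (bars, n = 3). NMRK2 reached 7506 or more in the 3 newborn lambs and did not exceed 1356 at any other stage. NAMPT and both SIRT2 probe sets were above every fetal value in all postnatal animals. Without overlap, 14.3% of all kept probe sets were higher at 150 d than at 120 d, and 18.9% at 230 d than at 120 d. In the same way 9.94% were lower at 230 d than at 150 d.

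NMRK2 was high in the newborn animals alone. Its signal was 12810, 12936 and 7506 in the 150 d lambs, against 794, 954 and 461 in the 120 d fetuses. The lowest newborn animal was thus far above the highest fetal one (groups did not overlap in this direction in 14.3% of all kept probe sets), and the third newborn animal was well below the other two. In the 230 d lambs the signal was 1356, 855 and 1193, and no value overlapped with those of 150 d, as in 9.94% of all kept probe sets. The younger fetuses gave 476, 421 and 446 at 80 d, and 607, 421 and 403 at 100 d. Those of 100 d overlapped with both other fetal stages, and the third 120 d fetus lay within the range of 80 d.

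From the youngest stage to the oldest, the means of NMRK2 were 448 ± 27.9, 477 ± 113, 736 ± 251, 11080 ± 3099 and 1134 ± 255 (SD, n = 3 each). NMRK2 was 3.93 higher on the log2 scale at 150 d than at 120 d (SE 0.31, 15.3-fold), and its difference of 230 d minus 150 d was -3.27 (SE 0.31, 9.66-fold). With any 1 array left out these lay between 3.63 and 4.19, and between -3.53 and -3.08. In order of level, 80 d was lowest, followed by 100 d, 120 d, the older lambs and the newborn lambs. All neighbours in this order overlapped except 230 d and 150 d. The older lambs and the late fetuses overlapped, with a log2 difference of 0.66 (SE 0.31), 230 d minus 120 d. Among the 15981 kept probe sets, NMRK2 had the 13th largest rise between 120 d and 150 d and the 22nd largest fall after it. By the smaller of the 2 changes it ranked 4th as a newborn peak.

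Adipocyte markers gave mixed values in the same animals. The summed signal of 4 adipocyte markers of 6 listed (PLIN1 and LEP had no kept probe set) ranged from 896 to 1590 at 150 d, against 325 to 915 at 120 d, so that the stages overlapped, and from 517 to 788 at 230 d. The marker genes were added after their values were seen, so their calls and p-values are a description only. Of these, FABP4, the fatty acid binding protein of adipocytes and capillaries, rose at 150 d against 120 d by 2.69 on the log2 scale (adjusted p = 0.0036), and its mean of 717 at 150 d stood beside 115 at 120 d and 207 in the older lambs. ADIPOQ, the adipocyte hormone adiponectin, averaged 233 ± 251 at 150 d, against 41.4 ± 44.2 at 120 d, with 95.9 ± 42.2 in the older lambs (SD, n = 3 each). LPL averaged 352 at 150 d, against 358 at 120 d, and CIDEC 34.4, against 39.2, and of the 4 only FABP4 passed. The part of these cells in the NMRK2 values was not tested.

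NAMPT had its highest mean in the older lambs, whereas NMRK2 at 230 d was far below its newborn values and overlapped with the 120 d fetuses. In the fetuses its signal was 133, 148 and 149 at 80 d, then 165, 211 and 259 at 100 d, and 240, 278 and 298 in the last stage before birth. After birth it was 536, 861 and 528 at 150 d and 1020, 954 and 630 at 230 d. Every postnatal animal was above every fetal one. Without overlap, 14.3% of all kept probe sets were higher at 150 d than at 120 d, and 18.9% at 230 d than at 120 d. The 100 d animals were above those of 80 d (as in 10.1% of all kept probe sets), and those of 120 d were too (12.5%). The 2 postnatal stages overlapped, as did 100 d and 120 d. The means were 144 ± 9.19, 212 ± 46.8, 272 ± 29.4, 642 ± 190 and 868 ± 208 from 80 d to 230 d (SD, n = 3 each).

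On the log2 scale NAMPT was 1.21 higher at 150 d than at 120 d (SE 0.25, 2.31-fold) and 1.65 higher at 230 d than at 120 d (SE 0.25, 3.14-fold). The difference of 230 d minus 150 d was 0.44, and that over the fetal span 0.92 (120 d minus 80 d). With any 1 array left out, the difference of 150 d minus 120 d lay between 0.97 and 1.33, and that of 230 d minus 120 d between 1.52 and 1.87. A 2nd probe set of NAMPT gave signals between 1.2 and 19.6 and was not kept.

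NADSYN1, which amidates nicotinic acid adenine dinucleotide to NAD, stayed close to the minimum signal at every stage. In order of age its means were 60.9 ± 21.3, 52.1 ± 10.4, 50.6 ± 14.5, 67.4 ± 21.9 and 75.5 ± 17.8 (SD, n = 3 each). All stages overlapped, and the largest of its differences was 0.59 on the log2 scale (SE 0.32), 230 d minus 120 d. The geometric mean at 120 d was under the minimum signal of 50, and no bound on the fold is given, since the stages overlapped. The other NADSYN1 probe set was not kept, and its signals ran from 3.0 to 77.5. Its means were 7.5, 10.6 and 13.6 at the fetal stages and 37.4 and 42.8 at the postnatal stages, all under 50. At such signals a mismatch between the cattle probes and sheep RNA cannot be told apart from little RNA.

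SIRT1, the nuclear deacetylase known to act on transcription factors and coactivators of metabolism, was lower in the newborn lambs than in the late fetuses in both of its probe sets. The first probe set gave 76.1, 181 and 136 at 150 d, against 316, 309 and 411 at 120 d. The second gave 17.9, 47.7 and 56.9 at 150 d, against 114, 101 and 78.3 at 120 d. In neither did the groups overlap, and 23% of all kept probe sets were lower at 150 d in this way. The log2 differences, 150 d minus 120 d, were -1.47 (SE 0.44) and -1.40 (SE 0.41). The geometric mean of the second at 150 d was under the minimum signal of 50, so its fitted difference is no bound, and against that minimum it was at least 1.93-fold lower.

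The earlier fetuses varied more. The first SIRT1 probe set gave 234, 567 and 547 at 80 d and 252, 391 and 249 at 100 d, and the second gave 76.3, 91.4 and 63.7 at 80 d and 95.7, 121 and 141 at 100 d. The probe sets therefore differed in order among the fetal stages, with the highest mean at 80 d in the first (449 ± 187) and at 100 d in the second (119 ± 22.7). In the 230 d lambs they gave 136, 312 and 121, and 77.2, 51.8 and 33.8, which overlapped with 150 d in both. In the first the mean was 190 ± 106 at 230 d and 131 ± 52.5 at 150 d, and in the second 54.3 ± 21.8 at 230 d, against 40.8 ± 20.4 at 150 d (SD, n = 3 each). Over the 15 arrays the probe sets correlated at a Pearson r of 0.67 (Spearman 0.53), on the same arrays and stages.

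Endothelial markers were also lower at 150 d than at 120 d. The summed signal of the 5 genes listed, all measured, ranged from 1663 to 3148 at 150 d, against 5106 to 6146 at 120 d, and from 2570 to 2846 at 230 d. At 150 d, 3 of the 5 had fallen against 120 d: PECAM1 by 1.28, CDH5 by 1.47 and TEK by 1.38 on the log2 scale (adjusted p = 0.0021, 0.0022 and 0.0073). These genes too were added after their values were seen, so the p-values are a description only. At 80 d the sum was 3162 to 3599. There the first SIRT1 probe set had its highest mean (449) and the second its lowest fetal mean (77.1). Sums of erythroid, Schwann cell and leukocyte markers were also lower at 150 d than at 120 d without overlap. Those of fibroblast and satellite cell markers overlapped. The part of these cells in the SIRT1 values was not tested.

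SIRT2, the mainly cytosolic tubulin and histone deacetylase, had 2 probe sets that followed the same course. The first gave 986, 1020 and 929 at 150 d, against 598, 619 and 468 at 120 d, and 1072, 1284 and 1210 at 230 d. The second gave 395, 471 and 478 at 150 d, against 176, 218 and 227 at 120 d, and 499, 535 and 559 at 230 d. In both, each postnatal animal exceeded each fetal animal, and each 230 d animal exceeded each 150 d animal. Such separation was common, with 14.3% of all kept probe sets higher without overlap at 150 d than at 120 d, 14% at 230 d than at 150 d and 18.9% at 230 d than at 120 d. In the first, the means were 482 ± 57.1, 581 ± 72.7 and 562 ± 81.8 at the fetal stages in order of age, and 978 ± 45.9 and 1189 ± 107 at 150 d and 230 d. In the second they were 189 ± 31.8, 180 ± 33.7, 207 ± 27.2, 448 ± 46.4 and 531 ± 29.8 from 80 d to 230 d (SD, n = 3 each).

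Both SIRT2 probe sets were higher at 150 d than at 120 d, by 0.81 (SE 0.18, 1.75-fold) and 1.12 (SE 0.20, 2.17-fold) on the log2 scale, and at 230 d than at 120 d, by 1.09 (2.13-fold) and 1.37 (2.58-fold). The step after birth was small, 0.28 and 0.25, 230 d minus 150 d. The fetal stages overlapped in both. With any 1 array left out, the differences of 150 d minus 120 d lay between 0.68 and 0.89 in the first and between 1.00 and 1.21 in the second. The probe sets correlated at a Pearson r of 0.92 (Spearman 0.73) over the 15 arrays.

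The mitochondrial sirtuins differed less between stages. SIRT5, which removes succinyl, malonyl and glutaryl groups, had means of 209 ± 17.3, 216 ± 19.7, 231 ± 15.8, 251 ± 13.9 and 330 ± 25.6 from 80 d to 230 d (SD, n = 3 each). The 230 d animals had signals of 351, 302 and 338, against 239, 266 and 249 at 150 d and 234, 246 and 214 at 120 d. They stood above all the others, and the earlier stages overlapped with their neighbours. The log2 differences were 0.39 for 230 d minus 150 d and 0.51 for 230 d minus 120 d (SE 0.15 each). Groups did not overlap in this direction in 14% and 18.9% of all kept probe sets.

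SIRT3, the main deacetylase of the mitochondrial matrix, varied more between animals of a stage than between most stages. Its means were 99.7 ± 36.5, 128 ± 49.9, 91.7 ± 23.6, 107 ± 27.2 and 149 ± 25.8 from 80 d to 230 d (SD, n = 3 each). The 230 d lambs gave 137, 131 and 179, against 116, 69.0 and 90.1 at 120 d, without overlap, with a difference of 0.72 on the log2 scale (SE 0.36). All other stages compared overlapped. A 2nd SIRT3 probe set was not kept, with signals of 4.8 to 70.4 and means of 13.8, 23.5, 26.9, 41.4 and 24.9 in order of age.

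**Figure D2:**
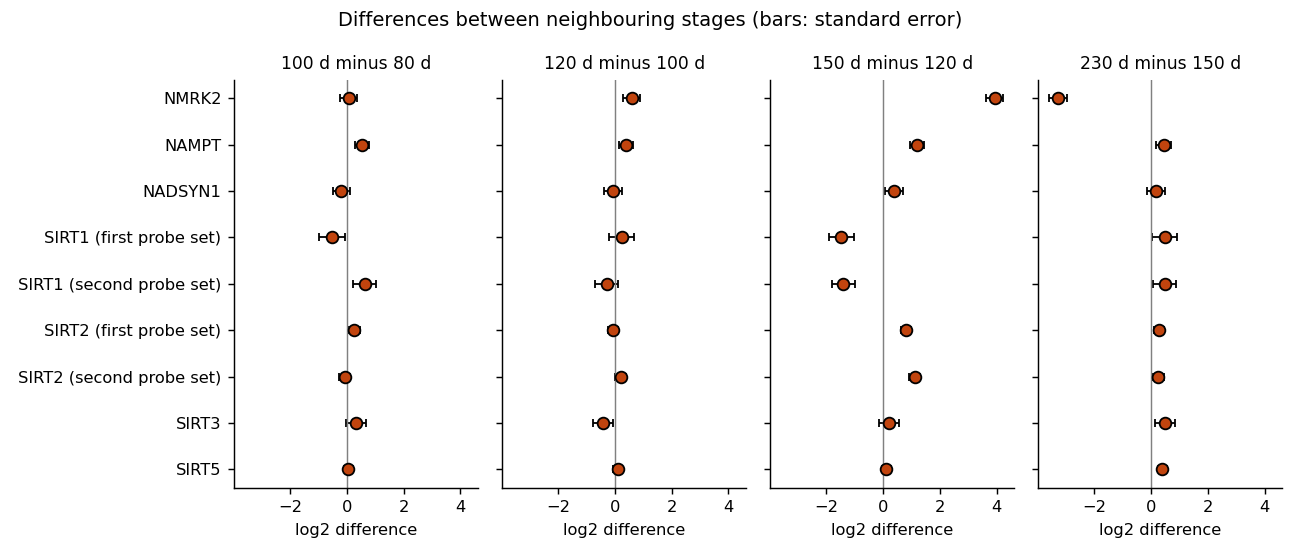
Log2 difference in signal (x) between neighbouring stages, later minus earlier, for the 9 kept probe sets (y), with the standard error as bars. NMRK2 stands farthest from 0 in both of the later panels, at 3.93 and then -3.27. In the fetal panels the differences run from -0.52 to 0.63, and in the last panel those besides NMRK2 from 0.18 to 0.49.

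The direction of the smaller differences depended on the scale of the arrays. When the arrays were scaled to the hybridisation controls in place of all probe sets, the median of all kept probe sets was -0.81, 150 d minus 120 d, against -0.15 as deposited. NMRK2 kept large differences under that scaling, 3.28 and then -3.54. Those of NAMPT (0.55) and SIRT2 (0.15 and 0.46) at 150 d were smaller, those of SIRT1 larger in size (-2.13 and -2.06), and those of NADSYN1, SIRT3 and SIRT5 had a negative sign (-0.25, -0.43 and -0.54). The count of members past the threshold between 120 d and 150 d was then 1 higher and 2 lower (NMRK2 and both of SIRT1), against 4 higher and 0 lower as deposited, and from 120 d to 230 d 0 higher and 2 lower (both of SIRT1), against 3 higher and 0 lower. With array medians set equal or quantile normalization, the 4 member probe sets of 120 d to 150 d were all higher.

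The other genes of the pathway were taken from 6 lists of 79 genes, of which 56 had a probe set and 49 were kept and tested, each by its probe set of highest mean signal. The lists were drawn up with earlier results of these data known, so their calls are a description as well. Between 120 d and 150 d, 11 of the 49 passed, all higher at 150 d, where 6.73% of the 7547 named genes passed in that direction. On the scale of the hybridisation controls there were 12 calls, 4 higher and 8 lower, so that the split of the calls depended on the scale. The 11 genes all kept a positive difference there, and the 8 lower calls were of other genes. With array medians set equal all 12 calls and with quantile normalization all 10 were higher. Of the 11, 6 were in the list of shuttles that carry NADH electrons into the mitochondrion, and none in the list of NAD synthesis and salvage. The shuttle list also held the lactate dehydrogenases LDHA and LDHB, which are no shuttles, and LDHA was among the 6. Between 120 d and 230 d, 11 passed as higher at 230 d and 1 as lower (2 and 11 on the scale of the hybridisation controls), where 7.47% and 9.02% of named genes did. Between 80 d and 120 d, 3 passed, and between 80 d and 100 d 1, all higher at the later stage, where 1.22% and 0.133% of named genes did. In limma, none passed between 100 d and 120 d, nor from the newborn to the older lambs (10 in each at an unadjusted p under 0.05; 9 and 5 by the moderated F-statistic), where 0.053% and 2.31% of named genes passed in either direction.

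The 8 tested genes of NAD synthesis and salvage gave no call in any interval. Their median log2 difference was -0.15, 150 d minus 120 d, against -0.08 over named genes. NMNAT1, the nuclear enzyme that completes NAD from the mononucleotide, averaged 201, 196, 169, 120 and 202 from 80 d to 230 d. It was lowest at 150 d, where NMRK2 was highest, with a log2 difference of -0.49 (SE 0.27, adjusted p = 0.22), 150 d minus 120 d. NMRK1, NMNAT2 and NMNAT3 had no probe set. In the list around NAD synthesis from tryptophan, 3 genes were tested, IDO1, AADAT and KYAT3, and between 120 d and 150 d only KYAT3 passed. KYAT3, a kynurenine aminotransferase, rose at 150 d by 1.28 against 120 d (SE 0.18, adjusted p = 0.00039). It averaged 1080 ± 150 at 150 d, against 441 ± 26.1 at 120 d (SD, n = 3 each). This rise cannot be read as a rise of NAD synthesis. IDO1 had a lower mean at 150 d than at 120 d, with overlap and with both means under the minimum signal of 50.

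In the list of NADP, transhydrogenase and NAD transport, 2 of 6 rose at 150 d. NNT, the proton-driven transhydrogenase of the inner mitochondrial membrane, gave 5170, 4168 and 4883 at 150 d, against 1146, 1299 and 1194 at 120 d. The values did not overlap, and the log2 difference was 1.96 (SE 0.20, adjusted p = 7.3e-05), with 2.31 for its other probe set. NAXE, which repairs hydrated NADH and NADPH, rose by 0.95 (SE 0.20, adjusted p = 0.0054). The call did not hold without 120 d replicate 1 or 3 or 150 d replicate 1 or 2, with differences of 0.79 to 0.93. SLC25A51, the mitochondrial NAD carrier, averaged 318, 287, 262, 216 and 237 in order of age and passed in no interval.

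The shuttle list, LDHA and LDHB included, had a median log2 difference of 1.59, 150 d minus 120 d, over its 9 tested genes. Over named genes it was -0.08. GOT2, the mitochondrial aspartate aminotransferase, gave 6981, 5949 and 4726 at 150 d, against 1062, 653 and 428 at 120 d, a rise of 3.12 (SE 0.29, adjusted p = 4e-05). GPD1, the cytosolic glycerol-3-phosphate dehydrogenase, gave 7708, 4637 and 5565 at 150 d, against 832, 1080 and 876 at 120 d, a rise of 2.66 (SE 0.24, adjusted p = 3.6e-05). Neither gene's groups overlapped. GPD2, the mitochondrial partner of GPD1, averaged 91.3 at 150 d, against 115 at 120 d, and did not pass. The 2 inner membrane carriers of the malate-aspartate shuttle also rose, SLC25A11 by 1.86 (adjusted p = 0.00017) and SLC25A12 by 1.38 (adjusted p = 0.0019), as did MDH2 by 1.59 (adjusted p = 0.00028). Other probe sets of SLC25A12 gave 0.93, which did not pass, and 1.39, which did. LDHA, the muscle form of lactate dehydrogenase, rose by 1.07 (adjusted p = 0.0028) by its probe set of highest signal, while its other probe sets gave -0.93 and 2.06. The LDHA call did not hold without 120 d replicate 1 or 3 or 150 d replicate 1 or 3, with differences of 0.96 to 1.06, and with quantile normalization, at 0.57. Scaled to the hybridisation controls, GOT2, GPD1, SLC25A11 and NNT passed as higher and the other 7 of the 11 genes did not.

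From the newborn to the older lambs the differences of these genes, 230 d minus 150 d, were -0.20 for GOT2, 0.21 for GPD1, -0.42 for NNT, -0.62 for SLC25A11 and -0.23 for KYAT3, and none passed, beside -3.27 for NMRK2. On the deposited scale all 5 were higher at 230 d than at 120 d, GOT2 by 2.92 (adjusted p = 3.7e-05), GPD1 by 2.87 (adjusted p = 1.1e-05), NNT by 1.54 (adjusted p = 0.00021), SLC25A11 by 1.25 (adjusted p = 0.0015) and KYAT3 by 1.06 (adjusted p = 0.00097). On the scale of the hybridisation controls GOT2 and GPD1 (1.94) still passed, and NNT (0.62), SLC25A11 (0.32) and KYAT3 (0.13) did not. The difference between these genes and NMRK2 was not tested.

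The list of NAD consumers outside the members, with the ADP-ribose hydrolases PARG, ADPRS and MACROD1, had 14 tested genes. ART3, of the ADP-ribosyltransferase family, was the 1 that rose at 150 d. It gave 3246, 3975 and 4050 at 150 d, against 1411, 1285 and 1672 at 120 d, a log2 difference of 1.37 (SE 0.25, adjusted p = 0.0022), and without 120 d replicate 2 the difference of 1.28 no longer passed. It had already risen between 80 d and 120 d, by 4.16 (adjusted p = 2e-06). Its other probe sets gave -0.19 and 0.39, 150 d minus 120 d, and did not pass. Nor did they pass over the fetal span, with 1.98 and 0.61, 120 d minus 80 d. On the deposited scale, PARP8 was the 1 gene of the lists that fell, with means of 29.0 ± 8.65 at 230 d and 63.8 ± 9.17 at 120 d (adjusted p = 0.0054), at least 1.27-fold lower against the minimum signal of 50. That call was lost without 120 d replicate 1 or 2 or 230 d replicate 2 or 3, with differences of -1.19 to -0.94.

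The remaining sirtuins and the main PARP gave no call in any interval. SIRT6, a chromatin deacetylase, averaged 81.7, 65.4, 62.2, 58.4 and 53.0 from 80 d to 230 d. SIRT7, the nucleolar form, averaged 106, 144, 163, 173 and 144, and PARP1, the DNA damage-activated polymerase, averaged 189, 204, 182, 185 and 152. Their differences, 150 d minus 120 d, were -0.12, 0.01 and 0.02 (SE 0.28, 0.32 and 0.20; adjusted p = 0.81, 0.99 and 0.95). SIRT4 and PARP2 had no probe set.

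The list around nicotinamide methylation, in which NNMT itself was not measured, gave 1 call of 9 at 150 d. AHCYL2, a relative of the enzyme that clears S-adenosylhomocysteine, rose by 1.07 against 120 d (adjusted p = 0.0066) and by 1.61 at 230 d against 120 d (adjusted p = 0.00045). Its other probe sets gave 0.55 and 0.52, 150 d minus 120 d, and neither passed. For 230 d minus 120 d they gave 1.24, which did not pass, and 1.70, which did. The call at 150 d was lost in 8 of the 15 runs without 1 array (any of 120 d or 150 d, or 80 d replicate 2 or 3), with differences of 0.93 to 1.21. AHCYL1 rose at 230 d by 0.96 against 120 d (adjusted p = 0.006), and lost that call without 120 d replicate 1 or 3 or any 230 d array, with differences of 0.78 to 1.04. On the scale of the hybridisation controls neither passed at 230 d, with 0.68 for AHCYL2 and 0.03 for AHCYL1.

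**Figure D3:**
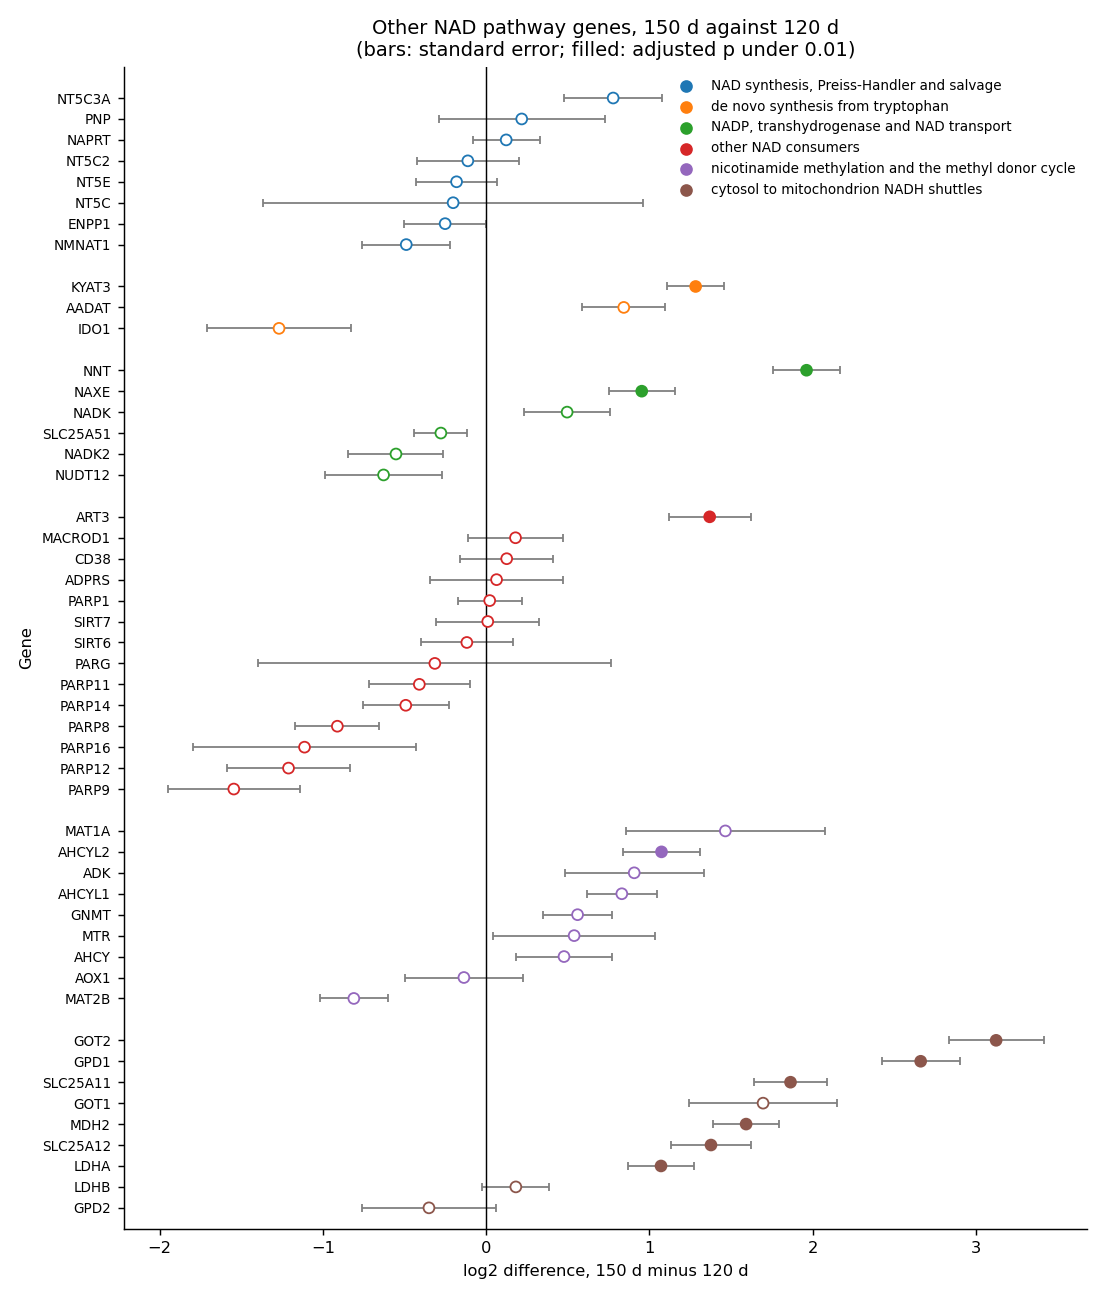
Log2 difference in signal (x), 150 d minus 120 d, of the 49 other NAD pathway genes (y), grouped and coloured by list, with the standard error as bars and filled points for an adjusted p under 0.01. On this deposited scale filled points lie on the right only. Of the 11, 6 are in the NADH shuttle list, LDHA among them, and none in the synthesis and salvage list. On the scale of the hybridisation controls 4 of the 11 passed as higher, and 8 genes outside the 11 passed as lower.

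The genes whose course was most like a member's were taken by Pearson correlation of log2 signal over the 15 arrays, among 7546 other named genes, as a description over shared arrays and stages. For NMRK2 these were FCGRT (r 0.97), the neonatal Fc receptor heavy chain, TAF10 (0.96), a subunit of the basal transcription factor TFIID, PRADC1 (0.95), MRPS31 (0.95), a mitochondrial ribosomal protein, and COQ5 (0.95), a methyltransferase of coenzyme Q synthesis. All 5 had their highest mean at 150 d. FCGRT averaged 10170 ± 307 at 150 d, against 3929 ± 133 at 120 d, and 4249 ± 477 at 230 d. Their log2 differences, 150 d minus 120 d, lay between 0.79 and 1.90 and those of 230 d minus 150 d between -1.27 and -0.67, so each was smaller in size than that of NMRK2 in both intervals.

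**Figure D4:**
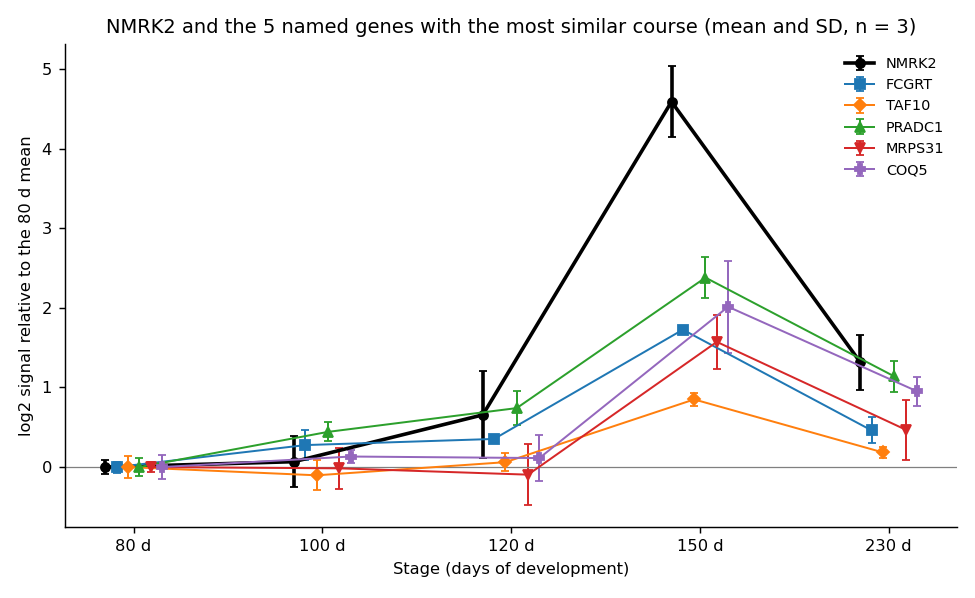
Mean log2 signal relative to the gene's own mean at 80 d (y) at the 5 stages (x) of NMRK2 and the 5 named genes with the most similar course, with the SD as bars (n = 3). All 6 lines are highest at 150 d, and NMRK2 (black) stands above the others there.

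NAMPT was most like UCP3 (r 0.98), an uncoupling protein of muscle mitochondria, PDK4 (0.97), the kinase that inhibits pyruvate dehydrogenase, and PDHX (0.96), a component of that complex. UCP3 averaged 1385 ± 126 at 150 d, against 177 ± 52.0 at 120 d, and 2654 ± 645 at 230 d, and PDK4 averaged 4676 ± 3123, against 216 ± 36.4, and 15390 ± 2398 at the same stages. Both thus had their highest mean at 230 d, as NAMPT had. SIRT2 was most like KIF1C (r 0.97), ZNRF1 (0.97) and GHITM (0.97), SIRT5 like FHOD1 (0.94), PPP1R15A (0.94) and TRAF3IP2 (0.94), and SIRT1 like NECAP1 (0.90), SLC30A5 (0.89) and RPL37 (0.89). The closest genes were less alike for NADSYN1 (SLC6A4 0.82, NPRL2 0.75 and PCK1 0.75) and for SIRT3 (MTMR9 0.82, CA3 0.79 and WIPI2 0.76).

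Among the members themselves, the highest correlation was between NAMPT and SIRT2 (r 0.90), followed by SIRT2 and SIRT5 (0.86) and NAMPT and SIRT5 (0.82), each gene by its probe set of highest signal. SIRT1 ran against the others, with r between -0.75 for NMRK2 and -0.33 for NADSYN1 and SIRT3. NMRK2 correlated at 0.65 with NAMPT and with SIRT2, and at 0.02 with SIRT3. These are descriptions over 15 arrays that share their stages.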

How the data were processed

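Expression was measured in longissimus dorsi of 15 sheep, 3 at each of 5 stages, with 1 array per animal. The deposited intensity values were MAS5 signals on a linear scale, for which the authors subtracted background, summarised perfect match against mismatch probes and brought each array to a target mean of 200. No version of MAS5 was stated. Samples were grouped by the stage in their labels. One label field calls all the animals fetuses, whereas the titles and the design text place 150 d and 230 d after birth, which was followed here. The members and gene lists were chosen with earlier results of these data known.

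From the 24128 probe sets, 112 controls were removed, and the 15981 with a signal of at least 0.25 of the array's 2% trimmed mean (about 50) on at least 3 arrays were kept. Signals under 0.1 (2 values) were set to 0.1 before log2. Symbols came from the platform annotation (13292 probe sets with 1, 86 with several, 10638 with none), and genes were named from single-symbol probe sets only. Stage means of all 15 arrays were fitted with limma 3.58.1 in R 4.3.3 (lmFit and eBayes, 10 residual degrees of freedom), and p-values were adjusted by Benjamini-Hochberg over all kept probe sets within an interval, with a threshold of 0.01. Where the geometric mean of a stage lay under 50 and the groups did not overlap, a bound against 50 is given beside the fitted difference. The fit was tested on simulated data. Replicates were separate animals and the number of arrays limits the precision; 2 arrays of a stage differed by a median of 0.256 to 0.469 in log2 signal.

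Named were all members, the passing genes of each list with the largest change (up to 6), the rest of the sirtuin, NMNAT, NMRK and PARP1 to PARP2 families, and the 3 genes most correlated with each member (5 for NMRK2). SLC25A51 and the marker genes were added after their values were seen. Marker lists described in part had the following sums of signal at 150 d, against 120 d: fibroblast and matrix 43515 to 70723, against 64546 to 67152; leukocyte 432 to 575, against 596 to 660; erythroid 501 to 1215, against 13350 to 14194; satellite cell 144 to 360, against 176 to 275; and Schwann cell 251 to 331, against 640 to 738. Figures were drawn with matplotlib.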

Additional observations from a re-analysis of the deposited data

How the results depend on the processing

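Values were recomputed with quantile normalization, array medians set equal, scaling to the hybridisation controls, an offset of 16 before log2, no filter, a filter on 8 arrays, a moderated F-statistic, limma with trend and robust options, the 6 arrays of an interval alone, a replicate block, an adjusted p under 0.05, the probe set of second highest signal and the omission of each array. No single probe set past the threshold changed sign under these settings. The split of the counts into higher and lower did change with scaling to the hybridisation controls, as given above. Counts of member probe sets past the threshold, given as a description, moved by more than 1.5 times as follows. For 120 d to 150 d the count of 4 was 2 without the filter and 0 with 6 arrays. With the F-statistic it was 1 instead of 0 between 80 d and 100 d, 1 instead of 0 between 100 d and 120 d, and 2 instead of 1 between 150 d and 230 d. With 6 arrays it was 0 instead of 1 between 150 d and 230 d, and 0 instead of 3 between 120 d and 230 d. The F-statistic was defined for neighbouring stages and gave no value over 80 d to 120 d or 120 d to 230 d. Smaller moves of the member counts were 6 instead of 4 at 0.05 and 3 with hybridisation controls for 120 d to 150 d, and 4 instead of 3 with quantile normalization and at 0.05, and 2 with hybridisation controls, for 120 d to 230 d. Counts of the other NAD genes moved by more than 1.5 times as follows. Between 100 d and 120 d the count of 0 was 1 with quantile normalization, 1 with the offset, 1 with the stricter filter, 9 with the F-statistic, 2 with trend and robust options and 1 at 0.05. Between 80 d and 100 d the count of 1 was 8 with the F-statistic, 0 with 6 arrays and 0 with the second probe set. For 120 d to 150 d the count of 11 was 0 with 6 arrays and 18 at 0.05. Between 150 d and 230 d the count of 0 was 5 with the F-statistic, 1 with trend and robust options, 1 with the replicate block and 3 at 0.05. Between 80 d and 120 d the count of 3 was 5 with trend and robust options, 1 with 6 arrays, 9 at 0.05 and 1 with the second probe set. For 120 d to 230 d the count of 12 was 4 with 6 arrays and 19 at 0.05. Of the values of single tested genes, 236 stayed on their side of the threshold under these settings and 46 lost their call, and 366 and 39 did so with 1 array left out. Fits of 6 arrays have fewer residual degrees of freedom, and the 0.05 threshold is looser by construction; for the rest the cause was not tested. With 1 array left out, the member count between 120 d and 150 d lay between 2 and 4, and was 2 without any 1 of the 120 d arrays or 150 d replicate 2, and the counts of the other intervals did not move. The count of other NAD genes then lay between 8 and 12 for 120 d to 150 d, between 9 and 14 for 120 d to 230 d, between 0 and 1 for 150 d to 230 d (1 without 120 d replicate 2 or 150 d replicate 3) and between 1 and 3 for 80 d to 120 d (1 without 80 d replicate 3 or 120 d replicate 2). Replicate numbers do not pair animals: of 30 same-numbered pairs of arrays 6 correlated over 0.1 in their deviations from the stage means, and 8 of 15 arrays deviated most like their own number. Under the replicate block the member count stayed at 4 between 120 d and 150 d. Signals near 50 and below (NADSYN1, and the second SIRT1 probe set after birth) limit what these arrays can show.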
